A study of Mus musculus with 12 samples.

Results

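The Hox genes of the 4 mammalian clusters were examined as a set of developmental loci that are silent in most pluripotent cells. The members were the 39 mouse genes whose symbol is Hoxa, Hoxb, Hoxc or Hoxd followed by a number, found through the transcript accessions of the array, out of 20660 genes that the accessions name. Each of the 39 had at least 1 probe and some, such as Hoxa9, Hoxa13 and Hoxb3, had 2, which gave 43 probes. HoxA held 14 of them, HoxB 11, HoxC 9 and HoxD 9. The rule used no measured value.

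RNA was measured on 12 single-colour arrays, each from 1 mouse induced pluripotent stem (iPS) cell clone. Clones 979B1, 979B3 and 979B4 and clones 967B2, 967B4 and 967B6 were labelled Aid+/+, while 981E1, 981E4, 981E5 and the 979F clones 979F1, 979F2 and 979F3 were labelled Aid-/-. All 12 carried a Nanog-GFP reporter, came from male cells of mixed C57BL6, DBA and 129S4 background and were taken at passage 6 from gelatin with LIF and puromycin, after retroviral reprogramming of embryonic fibroblasts. Each clone is a line grown from 1 colony, passaged 4 times on feeder cells and 2 times on gelatin, and clones are grouped here into the series 967B, 979B, 979F and, for 981E1, 981E4 and 981E5, series E (the last series in the plots). Slide 1 held the arrays of 967B, slide 2 those of 979F, and slide 3 both other series, so genotype and slide can be separated only on slide 3. There genotype coincides with clone series, and the 2 cannot be told apart. How the clones of a series relate to separate cultures or embryos is not labelled, and p-values measure the spread between clones.

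Hox genes encode homeodomain transcription factors that give cells their position along the body axis, with low-numbered paralogues acting towards the head and high-numbered ones towards the tail. In each cluster the genes lie in the order of their numbers and are opened in that order during development. In pluripotent cells the clusters are known for bivalent chromatin, in which Polycomb and Trithorax marks lie together and transcription stays very low. Fibroblasts, by contrast, keep the Hox code of the body region that they came from.

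A level is given as the log2 of a probe's signal minus the 75th percentile of its array, so that 0 is the signal at that percentile. A probe was taken as detected on an array when the scanner software marked it as well above background. Levels of different probes were not set against each other, since probes differ in brightness. The lowest level of any detected probe lay between -5.57 and -4.87 on the 12 arrays. A level within that range may or may not be marked as detected. Some levels above it were not, such as -4.44 for a Hoxb3 probe in 967B2.

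Between 56.9% and 60.4% of the 55681 probes were detected on each array, and no probe was saturated. The 14 probes of the 10 pluripotency markers were detected on all 12 arrays. Clone 967B4 stood apart from the other 11 in the fibroblast markers described with the results below, and comparisons that rest on it are given with and without it.

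The promoters printed here, from the RefSeq table of GRCm38.p6 (250 bases before to 50 after the gene start), show the sequence at loci of different behaviour. The HoxA and HoxB loci include Hoxa7 and Hoxb4, detected in every clone, and Hoxa5, among the probes that varied most between clones. From HoxD come Hoxd13, detected in every clone, and Hoxd10 and Hoxd12, detected in none. Capitals mark CG dinucleotides, the sites of DNA methylation, and the letters are those of the gene's own strand.
Hoxa7, chr6:52218524-52218823, minus strand: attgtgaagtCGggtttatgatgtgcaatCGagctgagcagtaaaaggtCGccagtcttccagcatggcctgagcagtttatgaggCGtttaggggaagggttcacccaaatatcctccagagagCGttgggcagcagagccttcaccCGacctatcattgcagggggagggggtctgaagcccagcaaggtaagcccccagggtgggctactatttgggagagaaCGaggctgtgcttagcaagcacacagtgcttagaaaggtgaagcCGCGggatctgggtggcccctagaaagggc
Hoxa5, chr6:52204538-52204837, minus strand: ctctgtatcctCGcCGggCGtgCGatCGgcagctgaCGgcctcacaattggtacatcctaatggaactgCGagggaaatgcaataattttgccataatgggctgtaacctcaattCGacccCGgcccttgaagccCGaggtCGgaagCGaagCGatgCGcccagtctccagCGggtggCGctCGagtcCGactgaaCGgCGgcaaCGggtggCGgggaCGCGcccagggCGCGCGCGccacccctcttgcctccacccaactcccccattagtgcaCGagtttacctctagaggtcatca
Hoxb4, chr11:96318017-96318316, plus strand: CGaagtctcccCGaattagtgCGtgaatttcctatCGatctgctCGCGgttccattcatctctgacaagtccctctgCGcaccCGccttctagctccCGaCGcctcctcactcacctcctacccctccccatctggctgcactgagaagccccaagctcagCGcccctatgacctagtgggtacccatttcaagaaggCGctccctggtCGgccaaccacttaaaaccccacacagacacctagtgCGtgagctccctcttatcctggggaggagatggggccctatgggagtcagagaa
Hoxd13, chr2:74667975-74668274, plus strand: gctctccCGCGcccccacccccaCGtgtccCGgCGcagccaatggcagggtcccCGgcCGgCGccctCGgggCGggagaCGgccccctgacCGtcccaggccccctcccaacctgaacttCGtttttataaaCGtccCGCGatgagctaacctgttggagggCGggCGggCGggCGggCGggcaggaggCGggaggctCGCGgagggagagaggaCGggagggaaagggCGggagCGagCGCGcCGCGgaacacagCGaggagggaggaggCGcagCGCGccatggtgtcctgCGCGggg
Hoxd10, chr2:74691641-74691940, plus strand: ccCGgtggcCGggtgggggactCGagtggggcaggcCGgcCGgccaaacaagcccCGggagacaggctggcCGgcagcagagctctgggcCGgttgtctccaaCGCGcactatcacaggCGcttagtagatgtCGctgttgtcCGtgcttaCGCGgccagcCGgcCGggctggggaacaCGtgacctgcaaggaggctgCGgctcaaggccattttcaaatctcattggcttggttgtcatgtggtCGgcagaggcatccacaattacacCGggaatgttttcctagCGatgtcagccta
Hoxd12, chr2:74674763-74675062, plus strand: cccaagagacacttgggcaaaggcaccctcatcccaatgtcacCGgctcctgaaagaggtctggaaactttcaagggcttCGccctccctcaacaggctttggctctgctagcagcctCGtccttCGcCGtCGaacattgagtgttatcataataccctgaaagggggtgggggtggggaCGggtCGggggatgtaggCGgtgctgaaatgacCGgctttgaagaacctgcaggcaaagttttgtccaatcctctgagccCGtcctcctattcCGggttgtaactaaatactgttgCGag

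The table held 24 promoters of 22 Hox genes. They had between 4 and 45 CG dinucleotides, with a median of 14.5, against a median of 7.0 over all 32851 promoters of the same length. Of the printed ones, Hoxd13 had 37, Hoxa5 29, Hoxd10 22, Hoxb4 14, Hoxd12 13 and Hoxa7 9. The 13 promoters of genes detected in at least 1 clone had a median of 10.0 (4 to 37), and the 11 of genes detected in none had a median of 20.0 (4 to 45). The ranges overlap, and the number of CG dinucleotides in this window did not separate detected from undetected Hox genes.

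Of the 39 Hox genes, 8 were detected on all 12 arrays, 9 on 6 to 11, 10 on 1 to 5 and 12 on none. By probe, 8 of 43 (18.6%) were detected on all arrays and 16 (37.2%) on none, against 64.7% and 20.4% of the 27235 probes with a gene name. Other homeobox genes, a list of 62 genes with 75 probes, lay in between, with 44% on all arrays and 21.3% on none. The genes detected everywhere included Hoxa7, Hoxb4, Hoxb9, Hoxb13, Hoxc4, Hoxc13 and Hoxd13, so each cluster contributed. Without 967B4, Hoxa3, Hoxa5 and Hoxc6 joined them and the count was 11.

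The clusters differed in how many members were seen. In HoxB, 10 of 11 probes were detected on at least 1 array, in HoxC 6 of 9, in HoxA 8 of 14 and in HoxD 3 of 9. All 9 probes of HoxA and HoxB paralogues 4 to 8 were detected somewhere. Of paralogues 9 to 13, 5 of 6 HoxA probes and 4 of 5 HoxD probes were never detected. HoxB and HoxC differed, with 2 of 2 and 4 of 5 such probes detected somewhere. Of HoxC paralogues 4 to 8, 2 of 4 probes were never detected. Over the 4 clusters, 13 of 15 probes of paralogues 4 to 8 and 8 of 18 of paralogues 9 to 13 were detected somewhere. On all arrays it was 3 and 4 of them. The genes detected in no clone were Hoxa10, Hoxa11 and Hoxa13 of HoxA, Hoxc5, Hoxc8 and Hoxc11 of HoxC, and Hoxd1, Hoxd3, Hoxd9, Hoxd10, Hoxd11 and Hoxd12 of HoxD. In HoxD, only Hoxd13 was detected on more than 4 arrays.

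**Figure D1:**
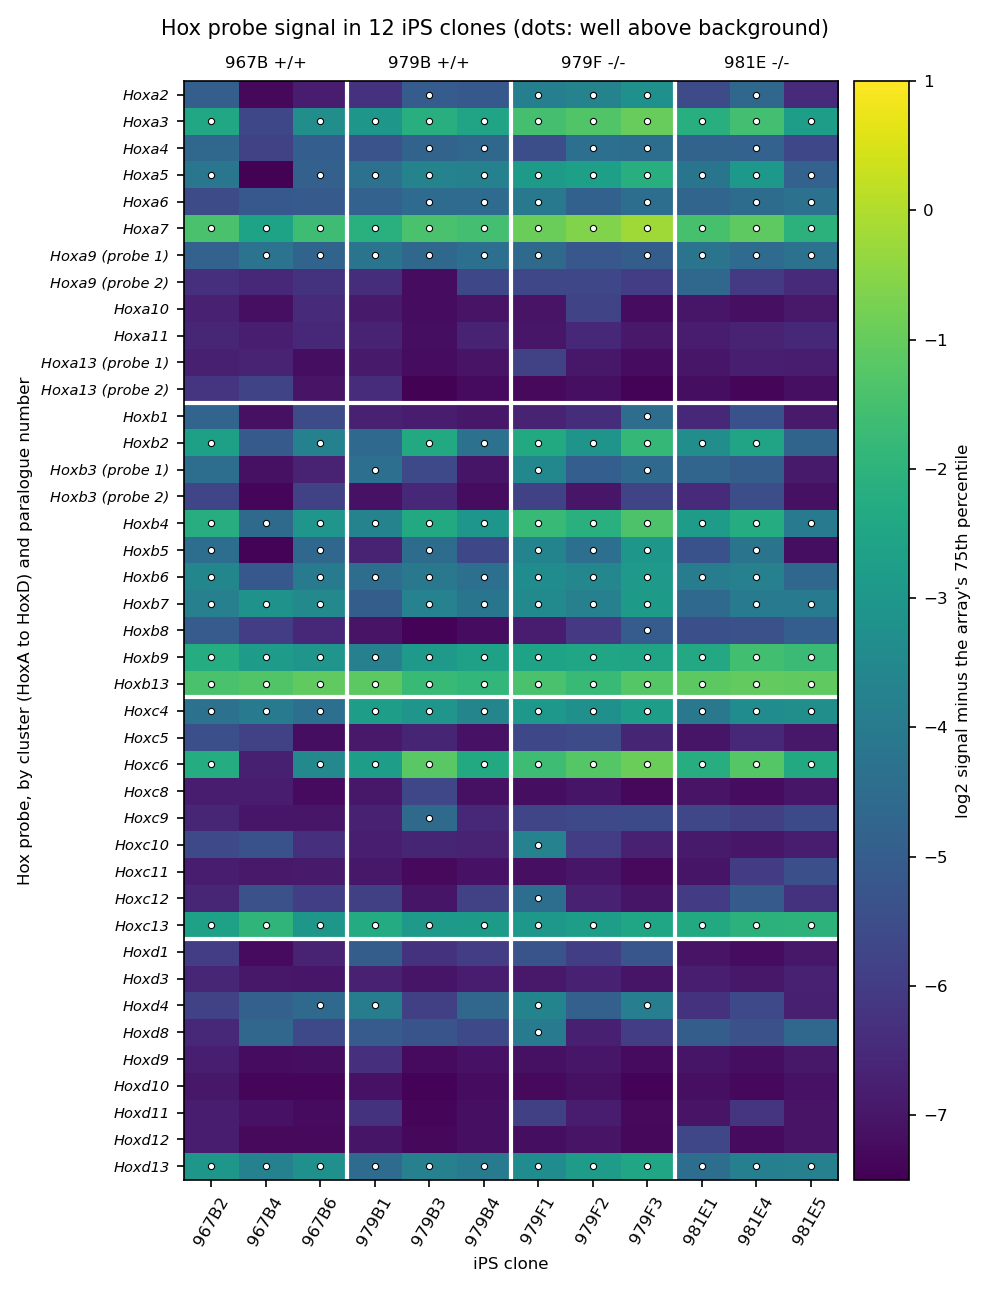
Level of 41 Hox probes (rows, by cluster and paralogue number) in the 12 clones (columns, by series), as log2 signal minus the array's 75th percentile, with a dot where the probe was well above background. Dots run across all 12 clones for 7 of these probes, and Hoxa3, Hoxa5 and Hoxc6 lack a dot only in 967B4.

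Most genes that flank the clusters were detected in every clone, unlike most members. Of the 3 nearest protein-coding genes on each side of each cluster, in the order of the RefSeq table, 21 of 24 had a probe. All 19 other than Evx1 and Evx2 were detected on all 12 arrays, among them Skap2, Snx10, Hibadh, Calcoco1, Smug1, Mtx2 and the heterochromatin genes Cbx1, Cbx3 and Cbx5. None of the 21, each by its probe detected on most arrays, passed the adjusted p between genotypes. Evx2, the even-skipped homeobox gene beside Hoxd13, was detected on none and Evx1, beside Hoxa13, on 8. Of the transcripts within the clusters, Hoxa11os, antisense to Hoxa11, was detected on all 12 arrays, and Hoxd3os1 on none.

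Each clone had between 10 and 23 Hox probes detected. The clones labelled Aid+/+ had 15, 10 and 17 (967B2, 967B4, 967B6) and 15, 20 and 17 (979B1, 979B3, 979B4). The clones labelled Aid-/- had 23, 17 and 23 (979F1, 979F2, 979F3) and 14, 19 and 14 (981E1, 981E4, 981E5). Thus 967B4 had the fewest and 979F1 and 979F3 the most, while the ranges of the genotypes overlapped (10 to 20 and 14 to 23). Over all named probes the 12 arrays differed far less, from 19085 in 967B4 to 19885 in 981E4.

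**Figure D2:**
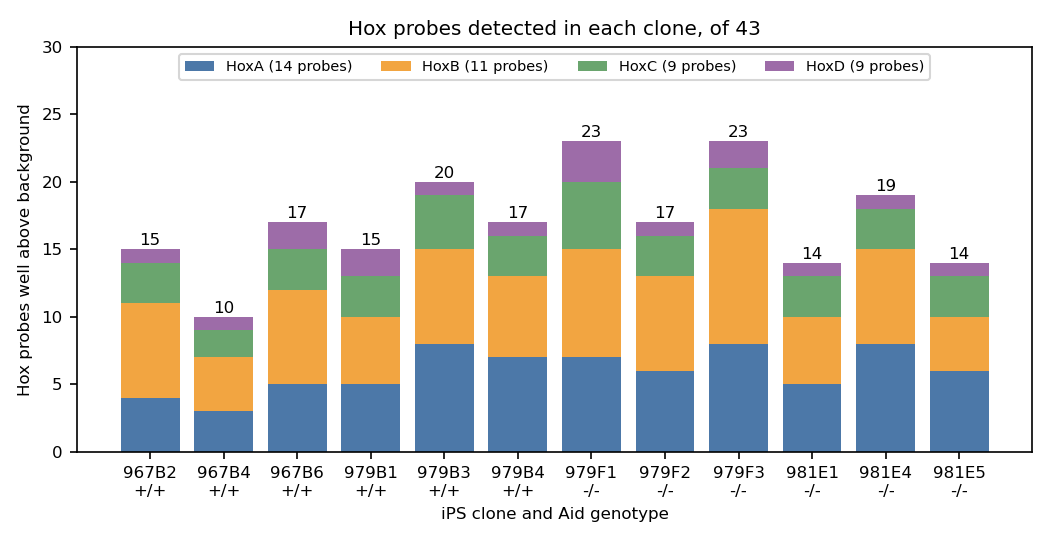
Number of Hox probes well above background in each clone (bar height, printed above each bar), divided by cluster. The counts run from 10 in 967B4 to 23 in 979F1 and 979F3, and HoxD adds 1 to 3 probes to each bar.

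Of the 10 genes detected in 1 to 5 clones, 9 were seen in a 979F clone. A 979F clone also had 35566 of the 39271 probes of any kind detected on at least 1 array, and 26 of the 27 such Hox probes. The share among all probes detected on 1 to 5 arrays was not computed. Hoxa2, which patterns the hindbrain and branchial arches, was detected in 979F1, 979F2, 979F3, 979B3 and 981E4. Hoxa4 was detected in 979F2, 979F3, 979B3, 979B4 and 981E4, Hoxd4 in 979F1, 979F3, 967B6 and 979B1, and 1 of the probes of Hoxb3 in 979F1, 979F3 and 979B1. Hoxb1, a hindbrain gene, and Hoxb8 were detected in 979F3 alone, Hoxc10, Hoxc12 and Hoxd8 in 979F1 alone, and Hoxc9 in 979B3 alone. The probe of Hoxb1 is printed on 10 spots of each array: 9 of them were well above background in 979F3, 2 each in 967B2 and 967B6, and at most 1 elsewhere. None of the 10 spots of Hoxa11 was well above background on any array. The second probes of Hoxa9 and Hoxb3 were well above background on no array, so these genes rest on 1 probe each.

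Hoxa3, which is needed for the thymus and parathyroid, had the lowest adjusted p of the Hox probes between genotypes, given with that comparison. Its level was -2.39, -5.65 and -3.30 in 967B2, 967B4 and 967B6 and -3.01, -2.12 and -2.54 in 979B1, 979B3 and 979B4. It was -1.49, -1.31 and -0.99 in 979F1, 979F2 and 979F3 and -2.13, -1.55 and -2.74 in 981E1, 981E4 and 981E5. All 979F clones lay above every other clone, and 967B4 was the single clone without detection.

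Hoxc6, a gene of the thoracic region, had the widest range of the Hox probes detected on at least 3 arrays. It read -2.23, -6.75 and -3.49 in the 967B clones, -2.78, -1.16 and -2.34 in the 979B clones, -1.63, -1.24 and -0.91 in the 979F clones and -2.19, -1.25 and -2.35 in the clones of series E, in the order of their numbers. The level of 967B4 was not well above background, and the other 11 clones lay between -3.49 and -0.91.

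Hoxa5, which acts in the lung and neck, had the same lowest and highest clones. It read -4.17, -7.45 and -4.90 in 967B, -4.34, -3.68 and -3.78 in 979B, -2.88, -2.71 and -2.15 in 979F and -4.20, -2.96 and -4.82 in series E. Hoxa2 read -4.94, -7.32 and -6.83 in 967B, -6.24, -5.03 and -5.15 in 979B, -3.82, -3.70 and -3.23 in 979F and -5.54, -4.63 and -6.49 in series E. For both genes 967B4 was the lowest clone and 979F3 the highest.

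Hoxa7 was detected everywhere and varied less. Its levels were -1.42, -2.57 and -1.65 in 967B, -2.12, -1.44 and -1.54 in 979B, -0.89, -0.60 and -0.21 in 979F and -1.48, -1.11 and -2.02 in series E. Again 967B4 was lowest and the 3 clones of 979F were above all others. Its series means were -1.88 ± 0.61 in 967B, -1.70 ± 0.36 in 979B, -0.57 ± 0.34 in 979F and -1.54 ± 0.46 in series E (SD, n = 3).

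In HoxB, Hoxb4, known for expanding blood stem cells, read -2.21, -4.57 and -3.06 in 967B, -3.71, -2.34 and -3.04 in 979B, -1.77, -2.10 and -1.37 in 979F and -2.79, -2.23 and -3.96 in series E. Clones 967B4, 981E5 and 979B1 were the lowest. The same 3 clones were the lowest for Hoxb2, Hoxb5 and Hoxb6. For Hoxb3, which lies next to Hoxb4, 979B1 was not among the lowest. Hoxb2, a hindbrain gene detected on 9 arrays, read -2.66, -5.10 and -3.77 in 967B, -4.61, -2.35 and -4.29 in 979B, -2.33, -3.11 and -1.85 in 979F and -3.30, -2.52 and -4.76 in series E. Hoxb5, detected on 7 arrays, read -4.43, -7.43 and -4.66 in 967B, -6.68, -4.49 and -5.65 in 979B, -3.68, -4.41 and -3.00 in 979F and -5.35, -4.24 and -7.19 in series E. Hoxb6, detected on 10, read -3.60, -5.16 and -3.99 in 967B, -4.47, -4.10 and -4.40 in 979B, -3.38, -3.57 and -2.92 in 979F and -3.92, -3.81 and -4.65 in series E. Clone 979F3 was the highest for Hoxb2, Hoxb5 and Hoxb6, whereas Hoxb3, on its detected probe, was highest in 979F1 and next highest in 979B1. Hoxb3, on the probe detected in 3 clones, read -4.44, -7.12 and -6.64 in 967B, -4.39, -5.61 and -7.00 in 979B, -3.55, -4.95 and -4.59 in 979F and -4.73, -5.01 and -6.89 in series E, and was not well above background in the other 9 clones.

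Hoxb7 did not share the order of Hoxb2, Hoxb4, Hoxb5 and Hoxb6 either. Its series means were -3.49 ± 0.31 in 967B, -4.31 ± 0.65 in 979B, -3.37 ± 0.46 in 979F and -4.19 ± 0.36 in series E (SD, n = 3), with 967B4 at -3.18 among its highest clones and 979B1 the lowest. Hoxb9 read -2.23, -2.79 and -3.06 in 967B, -3.79, -2.93 and -2.64 in 979B, -2.56, -2.46 and -2.54 in 979F and -2.36, -1.57 and -1.70 in series E, with its highest levels in 981E4 and 981E5. Hoxb13, which acts in the prostate and tail bud, varied little, at -1.43, -1.32 and -1.06 in 967B, -1.16, -1.78 and -1.86 in 979B, -1.44, -1.77 and -1.23 in 979F and -1.13, -1.04 and -1.08 in series E. It is the HoxB gene that lies apart from the others at the end of its cluster.

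In HoxC, Hoxc4 read -4.30, -3.99 and -4.39 in 967B, -2.78, -3.06 and -3.64 in 979B, -2.98, -3.22 and -2.77 in 979F and -4.11, -3.36 and -3.29 in series E. The 3 clones of 967B were among its 4 lowest. Hoxc13, a gene of hair and nails, read -2.63, -1.95 and -3.01 in 967B, -2.28, -2.89 and -2.85 in 979B, -2.96, -2.76 and -2.50 in 979F and -2.35, -2.05 and -2.02 in series E, with 967B4 as its highest clone.

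Hoxa6, Hoxa9, Hoxd4 and Hoxa4 lay near or below the limit of detection in most clones. Hoxa6 read -5.52, -5.15 and -5.08 in 967B, -4.83, -4.52 and -4.52 in 979B, -4.08, -4.87 and -4.43 in 979F and -4.74, -4.50 and -4.34 in series E, and was detected in 6 clones. Hoxa9 read -4.81, -4.26 and -4.76 in 967B, -4.24, -4.64 and -4.41 in 979B, -4.56, -5.20 and -5.01 in 979F and -4.24, -4.54 and -4.33 in series E, and was detected in 10. Hoxd4, detected in 4 clones, read -5.85, -4.90 and -4.59 in 967B, -3.94, -5.91 and -4.68 in 979B, -3.66, -4.89 and -3.86 in 979F and -6.25, -5.63 and -6.75 in series E. Apart from Hoxd4, their differences between clones are thus differences around the limit, and Hoxa4 (-5.83 to -4.38) straddled it likewise. Hoxd4 lay above the limit in 979F1, 979F3 and 979B1 and was detected in no clone of series E. In 979F against series E it was at least 2.32-fold higher with undetected levels raised to the limit (adjusted p = 0.0728 in limma).

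**Figure D3:**
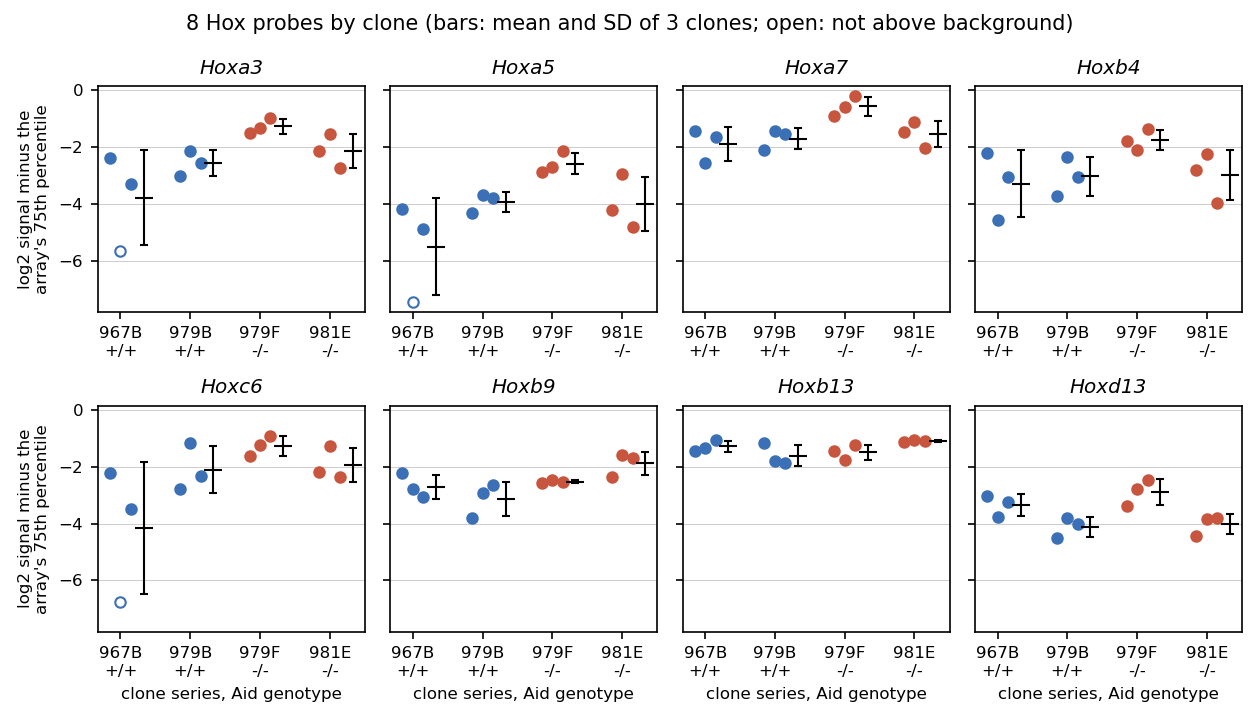
Level of 8 Hox probes by clone series, as log2 signal minus the array's 75th percentile, with 1 point per clone (blue, Aid+/+, red, Aid-/-, open where not above background) and the mean and SD of the 3 clones beside it. Hoxa3, Hoxa5, Hoxa7, Hoxb4 and Hoxc6 have 967B4 as their lowest clone, and Hoxb9, Hoxb13 and Hoxd13 do not.

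Markers of fibroblasts, the cells that were reprogrammed and that serve as feeders, varied between the clones along with these Hox genes. The list holds 12 genes with 13 probes. Lum, a proteoglycan of connective tissue, was well above background on no array, and the other 12 probes were detected on at least 9. In 967B4 only 6 of the 13 were detected. Col1a2, a chain of type I collagen, read -3.79 in 967B4 and 0.75 to 3.84 elsewhere, the transcription factor Twist2 -7.44 and -3.48 to -0.50, and Dcn, encoding decorin, was also lowest in 967B4, with -0.90 to 1.43 elsewhere. Of the 13 probes, 11 were lowest in 967B4 and 11 highest in 979F3. Twist1 did not follow, at -2.23 in 967B4 and -2.67 to -1.52 in the others.

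The summed fibroblast signal, in units of the array's 75th percentile, was 35.5, 2.11 and 14.5 in 967B2, 967B4 and 967B6 and 25.4, 43.6 and 29.2 in 979B1, 979B3 and 979B4. It was 60.4, 78 and 87.1 in 979F1, 979F2 and 979F3 and 41.7, 73.5 and 33.1 in 981E1, 981E4 and 981E5. The range was thus 2.11 to 43.6 in clones labelled Aid+/+ and 33.1 to 87.1 in clones labelled Aid-/-. Across the 12 clones its log2 had a Pearson r of 0.99 with Hoxa3 (Spearman's rho 0.986), 0.985 with Hoxc6, 0.959 with Hoxa5, 0.83 with Hoxa2, 0.82 with Hoxa7 and 0.819 with Hoxb4, 0.786 with Hoxb6, 0.731 with Hoxb2 and 0.704 with Hoxb5. These are descriptions over 12 arrays, chosen after their values were seen, and both sides of each share the scaling of the array. S100a4 alone made up most of the summed signal in every clone but 967B4. Without S100a4 the sum ranged from 2.06 to 17.8 in clones labelled Aid+/+ and from 13.8 to 34.2 in clones labelled Aid-/-. The correlations were not computed without S100a4. Without the 2 clones farthest from the median, 967B4 and 967B6, r was 0.98 for Hoxa3, 0.903 for Hoxc6, 0.897 for Hoxa5 and 0.918 for Hoxa7.

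Thus 9 of the 21 Hox probes detected on at least 3 arrays had an r of 0.7 or more. The share of all probes reaching this r was not computed, so the count cannot be called particular to Hox genes. For Hoxb13 r was -0.131, for Hoxc13 -0.31, for Hoxa9 -0.487 and for Hoxd13 0.289. Without 967B4 and 967B6 it was 0.0234 for Hoxb13, -0.0953 for Hoxc13, -0.709 for Hoxa9 and 0.691 for Hoxd13, and Hoxb7 went from -0.126 to 0.708, so that 10 probes reached 0.7. In 967B4, where 6 of 13 fibroblast probes were detected, 10 Hox probes were still detected, among them Hoxa7, Hoxa9, Hoxb4, Hoxb7, Hoxb9, Hoxb13, Hoxc4, Hoxc13 and Hoxd13. The part of the fibroblast signal in the Hox levels was not tested. In RNA from whole cultures, fewer cells of a type and less RNA per cell cannot be told apart.

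**Figure D4:**
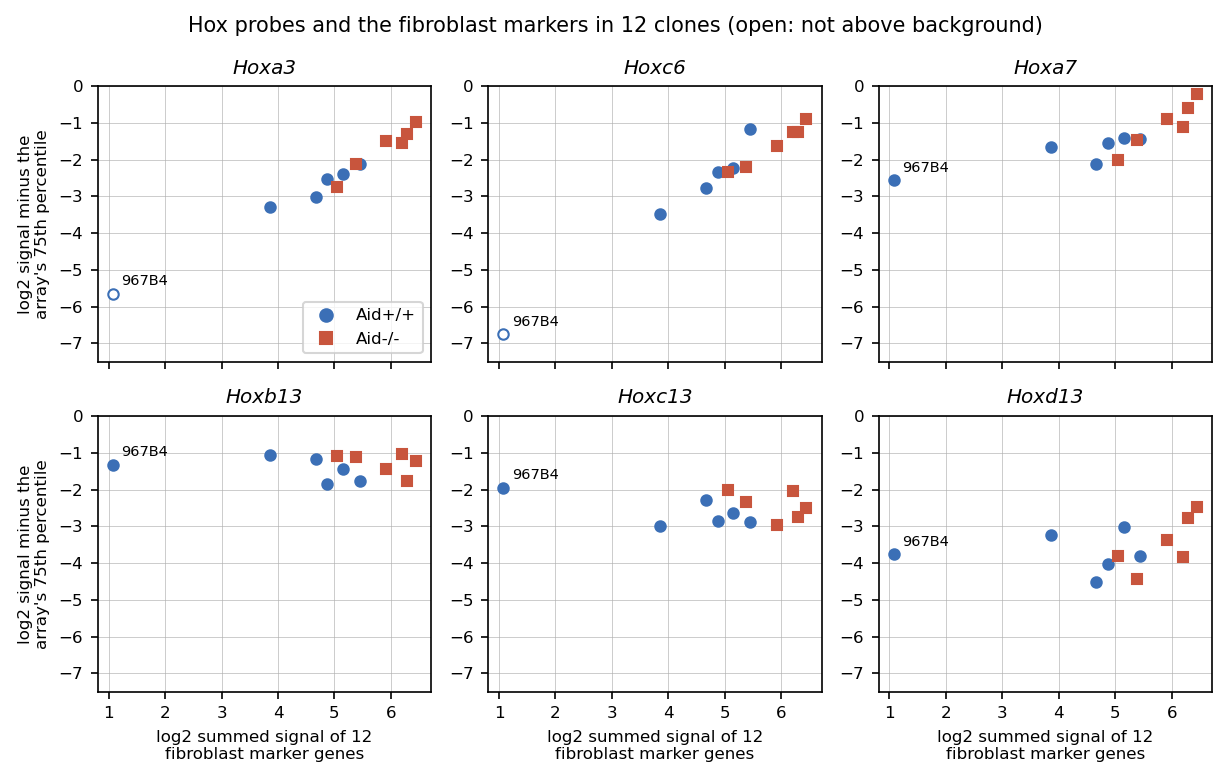
Level of 6 Hox probes (y axis, log2 signal minus the array's 75th percentile) against the log2 summed signal of 12 fibroblast marker genes (x axis) in the 12 clones, with open symbols where the Hox probe was not above background. Hoxa3 and Hoxc6 rise along the x axis (r = 0.99 and 0.985), and Hoxb13 and Hoxc13 do not (r = -0.131 and -0.31).

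The main comparison asked whether loss of Aid left the Hox genes at another level. No Hox probe passed an adjusted p of 0.05 between the genotypes in limma, with 0.0611% of all probes passing, and the lowest adjusted p was 0.257, for Hoxa3. At an unadjusted p under 0.05 there were 7 of 43 Hox probes (16.3%), where 13.6% of all probes passed. Of these 6 were higher in clones labelled Aid-/- (background 5.5%), namely Hoxa2, Hoxa3, Hoxa5, Hoxa6, Hoxa7 and Hoxb9, and 1, an undetected probe of Hoxa13, was lower (background 8.1%). The methods' t-test likewise left 0 past the adjusted p. No Hox probe separated the 6 clones of a genotype from the 6 of the other without overlap, which 2.17% of all probes did.

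Among the Hox probes detected on at least 3 arrays, Hoxc6, Hoxa3, Hoxa5 and Hoxa2 had the largest genotype differences. The mean of Hoxc6 was -1.60 in clones labelled Aid-/- and -3.12 in those labelled Aid+/+, a log2 difference of 1.53 (SE 0.75, adjusted p = 0.404). The difference was 1.47 for Hoxa3 (SE 0.54, 95% interval 0.30 to 2.64), 1.43 for Hoxa5 (SE 0.65, adjusted p = 0.361) and 1.35 for Hoxa2 (SE 0.60, adjusted p = 0.356). Without 967B4 these 4 values were 0.80, 0.97, 0.89 and 1.07. On slide 3, the single slide with both genotypes, they were 0.16 for Hoxc6, 0.42 for Hoxa3, -0.06 for Hoxa5 and -0.08 for Hoxa2. That comparison is series E against 979B, so genotype cannot be told from clone series in it. The other series, 967B and 979F, lay on slides of their own. With normexp background correction the 4 genotype differences over all clones were 0.75 for Hoxc6, 0.79 for Hoxa3, 0.47 for Hoxa5 and 0.27 for Hoxa2. Hoxa2 was well above background in 1 of the 6 clones labelled Aid+/+ and 4 of those labelled Aid-/-, so its difference is set partly by levels near the limit.

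Smaller differences were estimated for Hoxb3 (0.91, SE 0.62), Hoxb5 (0.91, SE 0.72), Hoxb2 (0.82, SE 0.56), Hoxb4 (0.79, SE 0.48), Hoxa7 (0.74, SE 0.30) and Hoxb9 (0.71, SE 0.26), none past the adjusted p. Without 967B4 these were 0.66 for Hoxb3, 0.54 for Hoxb5, 0.56 for Hoxb2, 0.50 for Hoxb4, 0.58 for Hoxa7 and 0.73 for Hoxb9. On slide 3 they were 0.12 for Hoxb3, 0.014 for Hoxb5, 0.22 for Hoxb2, 0.037 for Hoxb4, 0.16 for Hoxa7 and 1.24 for Hoxb9. For Hoxb13 the difference was 0.15 with a 95% interval of -0.22 to 0.52, and for Hoxa9 it was -0.13 (-0.52 to 0.27), which leaves out a change of more than 1 log2 unit. For Hoxc6 the interval of -0.11 to 3.17 does not. The mean was higher in clones labelled Aid-/- for 35 of the 43 Hox probes, against 44.3% of all probes, and the median difference was 0.27 against -0.01. This count includes 16 probes never detected, and it was 23 with another background correction (31.9% of all probes). When only probes detected on at least 1 array were fitted it was 25 of 27, where 43.3% of the fitted probes were higher. The fibroblast markers lay on the same side, with 12 of 13 probes higher and none past the adjusted p (lowest 0.163). At an unadjusted p under 0.05 there were 10 of the 13, where 13.6% of all probes passed. Their median difference was 1.77, but 1.06 without 967B4 and 0.45 on slide 3, in series E against 979B.

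**Figure D5:**
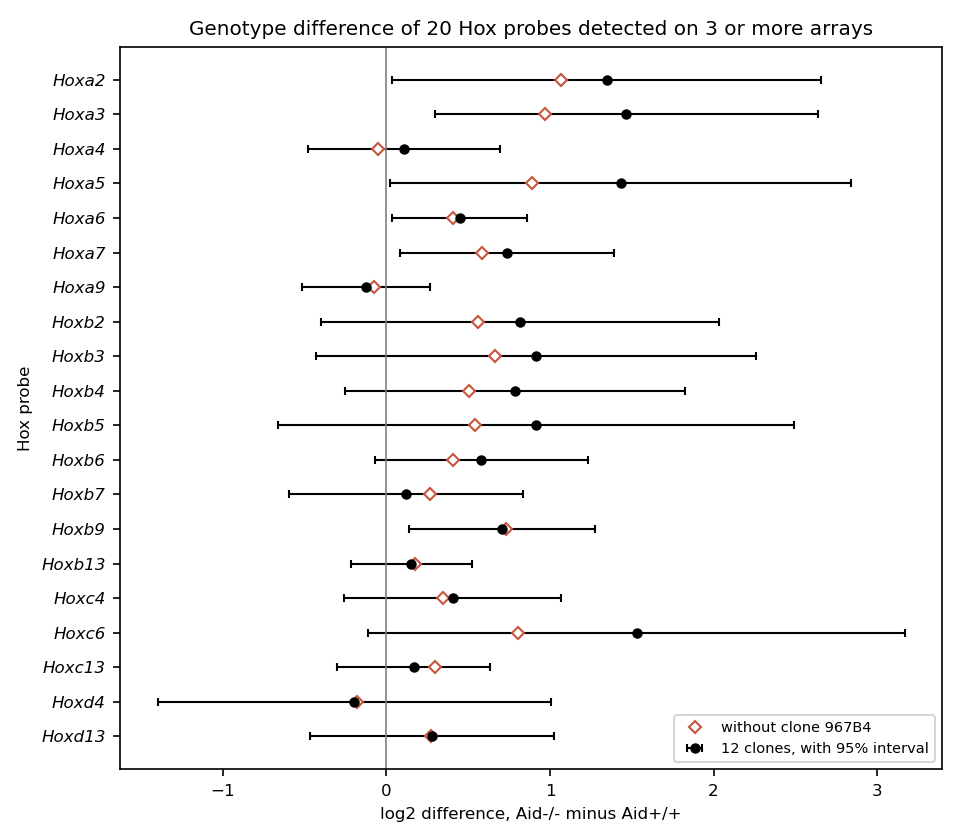
Difference between genotypes (x axis, log2, Aid-/- minus Aid+/+) for 20 Hox probes detected on 3 or more arrays, with 95% intervals from limma (black) and the value without clone 967B4 (open diamonds). Hoxc6, Hoxa3, Hoxa5 and Hoxa2 have the largest differences, and each is smaller without 967B4.

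The clone series were compared in 1 fit, in which contrasts that share a series share its clones. In 979F against 979B, the pair that shares an experiment number and holds both genotypes, no Hox probe passed the adjusted p (0.614% of all probes did), and 7 passed an unadjusted 0.05 (14.6% of all). The clones of the 2 series did not overlap for 12 Hox probes, or 27.9%, close to the 29.3% of all probes. The differences were 1.13 for Hoxa7 (SE 0.34, adjusted p = 0.175), 1.89 for Hoxa2 (SE 0.64, adjusted p = 0.217, detected in 1 of the 3 clones of 979B) and 1.24 for Hoxd13 (SE 0.30, adjusted p = 0.0999).

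In series E against 967B, the pair of the other clones, none passed the adjusted p (0.196% of all) and 10 an unadjusted 0.05 (12.8% of all). There 6 Hox probes did not overlap (14.8% of all). Hoxc6 differed by 2.22 (SE 0.94) and Hoxa3 by 1.64 (SE 0.68), both with 967B4 in the lower group, and without that clone by 0.93 and 0.71. In 979B against 967B, both labelled Aid+/+, none passed (0.711% of all) and 6 had an unadjusted p under 0.05 (10.5% of all), led by Hoxc4, which differed by 1.07 (SE 0.27, adjusted p = 0.137). In 979F against series E, both labelled Aid-/-, none passed (3.02% of all) and 10 had an unadjusted p under 0.05 (18.4% of all), the lowest adjusted p being 0.0546 for the undetected Hoxd1.

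In series E against 979B, on slide 3, 1 of 43 Hox probes passed the adjusted p, where 4.13% of all probes did, and 7 an unadjusted 0.05, where 18.2% did. It was Hoxb8 (adjusted p = 0.0417). Its levels were -5.44, -5.38 and -4.95 in series E and -7.06, -7.40 and -7.20 in 979B, and none of the 6 was well above background, so no fold is given. Hoxb9 in the same contrast was measured on all arrays: it read -2.36, -1.57 and -1.70 in series E and -3.79, -2.93 and -2.64 in 979B, a difference of 1.24 (SE 0.32, adjusted p = 0.0634), and passed in 3 alternative fits, in 1 of which (normexp background correction) Hoxb8 did not.

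Hoxd13, which shapes the digits and was the single HoxD member detected throughout, ordered the clones in opposite ways in the pairs of series. It read -3.36, -2.79 and -2.47 in 979F and -4.52, -3.80 and -4.03 in 979B, so every Aid-/- label lay above every Aid+/+ label. It read -4.43, -3.83 and -3.81 in series E and -3.02, -3.77 and -3.24 in 967B, the reverse. The difference between the pairs was 1.92 (SE 0.42, adjusted p = 0.165). For Hoxb7 that difference was 1.64 (SE 0.49, adjusted p = 0.312), with 979F and 979B overlapping. No Hox probe passed the adjusted p for this difference between pairs, where 0.106% of all probes did, and 6 had an unadjusted p under 0.05, where 9.85% of all did.

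Most probes of the machinery that keeps Hox clusters silent or opens them were detected on all arrays. Of the Polycomb repressive complex 2, which writes the silencing mark H3K27me3, all 11 genes were detected and 16 of 18 probes on all arrays. Of Polycomb repressive complex 1 it was 24 of 27 probes of 19 genes, and of the MLL and H3K27 demethylase genes, which oppose Polycomb, 11 of 11 probes of 8 genes. None of these probes passed the adjusted p between genotypes. Between series, the complex 2 subunit Suz12 was higher in series E than in 979B by 0.50 (SE 0.11, adjusted p = 0.0382) and lower in 979F than in series E by 0.58 (SE 0.11, adjusted p = 0.0291), and both passing probes of its partner Aebp2 were higher in series E than in 979B (0.83 and 0.96). Of complex 1, Ring1 was higher in 979F than in 979B by 0.58 (SE 0.11, adjusted p = 0.0469). In 979F against series E, Cbx6 was higher by 0.69 and 0.70 and Pcgf5 lower by 0.88 and 0.89 on 2 probes each. Men1, a subunit of MLL complexes, was higher by 0.62 in that contrast (adjusted p = 0.04998).

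TALE homeodomain proteins bind DNA together with Hox proteins, and all 9 genes of that list were detected. Meis2 read -5.85 in 967B4, not well above background, and between -3.06 and -0.64 in the other 11 clones, highest in 979F3. Pknox2 was also lowest in 967B4, at -3.71 against -2.26 to -0.88. The list as a whole was not lowest there: its summed signal was 21.4 in 967B4, within a range of 16.6 to 22.4 over the clones. Pbx2 was lower in series E than in 979B by 0.51 (SE 0.12, adjusted p = 0.0442), and no TALE probe passed between genotypes.

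Retinoic acid and Cdx factors are the usual activators of Hox clusters. Of 22 retinoic acid probes 17 were detected on all arrays, and Cyp26b1, which degrades retinoic acid, was higher in series E than in 979B by 1.04 (SE 0.23, adjusted p = 0.0335). The receptor Rarb, on its probe detected on all arrays, lay between -4.21 in 967B4 and -2.09 in 967B6. Cdx1 was detected everywhere and was highest in 967B4, at 1.54 against -0.72 to 0.67 elsewhere. Cdx2 was detected on 8 arrays and Cdx4 on none. In the ParaHox list, a Gsx2 probe passed between genotypes (adjusted p = 0.00116) although none of the 12 arrays had it well above background, and its fold is therefore left out. It passed in 979F against 979B, in series E against 967B and in series E against 979B too.

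Of the other homeobox list, none passed between genotypes. Isl1, a gene of motor neurons and heart, was detected on 4 arrays. It passed in series E against 979B (adjusted p = 0.0249) and in 979F against series E (adjusted p = 0.0339), with levels of -5.65, -5.56 and -6.62 in series E, none well above background, so no fold is given. Six3, of the forebrain, also on 4 arrays, read -4.09, -3.60 and -4.04 in 979F and -6.95, -5.23 and -6.87 in series E (adjusted p = 0.0328), again well above background in no clone of series E. Evx1 read -2.24, -3.77 and -2.33 in 967B, -6.22, -5.60 and -4.54 in 979B, -5.45, -4.15 and -4.69 in 979F and -2.57, -3.99 and -5.61 in series E. It was brightest in 967B2, 967B6 and 981E1. Mesoderm, endoderm and neurectoderm markers were detected on all arrays for 4 of 9, 2 of 7 and 5 of 8 probes.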

How the data were processed

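RNA of 12 clones, 6 per genotype, was hybridised to 1 array each, and groups were taken from the sample titles. The authors deposited a table of spots per array made with Agilent Feature Extraction 10.7.3.1 (array coordinates mm9). The processed intensity used here was corrected for background and spatial trends by the authors' software and not normalized between arrays. A table of log2 values that the authors deposited (column medians -3.775 to -3.587) matched the scanner intensities after the same 75th percentile scaling and served as an alternative.

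Outlier and control spots were left out, log2 was taken, spots of a probe were averaged and each array's 75th percentile was subtracted. A probe counted as well above background when at least 50% of its spots were flagged so. Accessions were matched to symbols through RefSeq (GRCm38.p6, a build other than the array's, hence used for names, gene order and the promoters only), and 27235 of 55681 probes were named. Arrays correlated with r between 0.971 and 0.997 over probes detected on all 12, and none was a duplicate. The number of arrays limits the precision.

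All 55681 probes were fitted with limma 3.58.1 (R 4.3.3; lmFit, eBayes), first by genotype and then by clone series, with Benjamini-Hochberg adjustment. Intervals use the moderated degrees of freedom. The fits were also run on simulated arrays with independent noise and planted changes. These arrays hold no slide effect and no limit of detection, so they do not test the fits under either. Values are given for Hox genes detected on at least 6 arrays, for the 5 probes with the largest genotype difference and the 5 with the largest range among those on at least 3, and for any past the adjusted p. The highest and lowest members of the other lists are not given, since levels of different probes are not comparable. The targeted gene and 1 member, which stays in the counts, are not reported here, and the labels were not checked against the targeted gene. Members, lists and the genes written about were chosen with earlier results of these data known. Python 3.11.15, pandas 2.3.3, numpy 2.4.6 and matplotlib 3.10.9 were used for summaries and plots.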

Additional observations from a re-analysis of the deposited data

Results flagged for a closer look

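Of 50 groups of 6 clones tested for a single clone far from the others, 5 held one. The test's chance rate of about 1 in 20 cannot be set against this count. Hoxa3, Hoxa5 and the fibroblast signal were flagged in the same clone. Hoxc9 and Hoxc10 were each detected only in the clone that was flagged. Clone 967B4 lay below the other Aid+/+ clones for Hoxa3 (-5.65, against -3.30 to -2.12) and Hoxa5 (-7.45, against -4.90 to -3.68), neither well above background there. It did so for the log2 summed fibroblast signal as well (1.08, against 3.86 to 5.45). Clone 979B3 lay above the other Aid+/+ clones for Hoxc9 (-4.57, against -7.00 to -6.54), and was the single clone in which Hoxc9 was detected. Clone 979F1 lay above the other Aid-/- clones for Hoxc10 (-3.72, against -6.98 to -5.96), and was the single clone in which Hoxc10 was detected.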

How the results depend on the processing

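No paired analysis was possible because replicate numbers were given in accession order and pair no clones. The count of 0 Hox probes past the adjusted p between genotypes became 1 with slide as a fixed block and on slide 3 alone (Hoxb8, well above background in none of those 6 clones), and lay between 0 and 1 when each clone was left out (1, Hoxc9, without 979B3). It was 0 in the other alternatives. In series E against 979B the count of 1 became 2 with probes detected on at least 1 array and with the trend and robust fit (Hoxb8 and Hoxb9), and stayed 1 with normexp but for Hoxb9 in place of Hoxb8. It was 0 to 2 when each clone was left out, with 0 without 979B1, 979B4, 979F2, 981E4 or 981E5, 2 (Hoxb8 and Hoxd1) without 967B4, and 1 that was Hoxc9 without 979B3 and Hoxc11 without 981E1. In 979F against series E the count of 0 became 1 with normexp (Hoxa2) and with quantile normalization (Hoxd1), and was 0 to 2 when each clone was left out, with 2 (Hoxd1 and Hoxd13) without 967B4, 1 (Hoxd1) without 967B2 or 979B1 and 1 (Hoxc11) without 981E1. In series E against 967B it was 0 to 1 (1, Hoxc9, without 979B3). In 979F against 979B, 979B against 967B and the difference between pairs it was 0 throughout. With the scanner's weaker detection flag 16 Hox probes were detected on all arrays and 41 on at least 1. Leaving out each clone gave 8 to 11 (11 without 967B4) and 24 to 27 (24 without 979F1). The count of 35 with a higher mean in Aid-/- (44.3% of all probes) was 23 with normexp (31.9% of all probes). It was 8 of 8 with probes detected on all arrays, where 39.8% of the probes fitted were higher. When each clone was left out it was 29 to 37, with 39.5% to 50.6% of all probes higher. The genotype difference changed sign with slide as a fixed block and, equally, on slide 3 alone for Hoxa2 (-0.084), Hoxa5 (-0.061), Hoxa9 (0.059) and Hoxc4 (-0.43), in 979F against 979B alone for Hoxc13 (-0.062), and for Hoxb7 without 979F3 (-0.060) and without 979B1 (-0.10), over a range of -0.10 to 0.28 when each clone was left out. With normexp the genotype differences were smaller, 0.034 against 0.91 for Hoxb3, 0.16 against 0.91 for Hoxb5, 0.27 against 0.82 for Hoxb2 and 0.38 against 0.79 for Hoxb4. The causes were not tested. With a fixed slide block the genotype difference is that of slide 3. Single-clone leave-outs can leave 2 clones in a series, whose spread is pooled. Signal near background limits what can be said of the 16 undetected probes, for which a low level cannot be told from none.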
